A study of Mus musculus with 6 samples.

Results

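Complex I, NADH:ubiquinone oxidoreductase, is the main entry point of electrons into the mitochondrial respiratory chain. The genes described here are the protein-coding genes of the deposited count table whose symbol starts with Nduf, 48 of the 57180 genes listed, kept as 2 classes. The structural class has 40 genes, and the Ndufaf class, named for assembly factors, has 8. RNA came from inguinal white adipose tissue of wild-type mice that had become obese on high-fat food, which both groups were fed. The 3 ADISSP libraries came from mice given recombinant Adissp, a protein hormone of fat, every day for 33 days at 68 nmol per kg. The 3 Control libraries came from mice whose own injection, if any, is not described in the labels. Strain, age and sex are not stated, all 6 libraries carry batch label 1, and whether a library is 1 mouse or a pool is not stated.

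Complex I passes electrons from NADH to ubiquinone and pumps protons across the inner mitochondrial membrane. Its peripheral arm holds an NADH-oxidising N module and a ubiquinone-reducing Q module, and its membrane arm has a proximal and a distal part. Core subunits carry the flavin, the iron-sulfur clusters and the ubiquinone site, and accessory subunits surround them. The membrane core is encoded by mitochondrial DNA as the mt-Nd genes, whereas Nduf genes are nuclear. Assembly factors help to build the modules and are not part of the finished enzyme. In brown and beige fat cells, which are rich in mitochondria, the proton gradient that the chain makes can be released as heat through Ucp1.

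Every complex I structural gene that could be tested was higher in ADISSP fat, by 2.09- to 4.99-fold, and 7 of 8 Ndufaf genes were higher, by smaller amounts. Of the 40 structural-class genes 39 were tested, which are 37 genes of complex I, Ndufa4 and Ndufa4l2. The untested one, Ndufb11b, had 0 counts in all 6 libraries, which allows up to 3 counts per library and covers counting error only. The lowest count of a tested member in any library was 57. In edgeR's quasi-likelihood test, with p-values adjusted by Benjamini-Hochberg over 17320 genes, 38 of the 39 rose, 0 fell and 1 did not pass the threshold of 0.05. Across all genes tested, 35.0% were called changed, 18.5% higher and 16.5% lower. Without Control 1 the share called changed was 21.6%, and 38 structural-class genes were again higher. All 37 complex I genes were at least 2-fold higher, against 7.64% of all genes, and in all 37 the lowest ADISSP library was above the highest Control library, which held for 26.0% of all genes in that direction. The adjusted p-values of the 37 ran between 9.5e-06 and 0.0006.

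The median log2 fold change of the structural class was 1.74, a 3.33-fold difference, beside a median of -0.01 over all genes tested. A value of 1.74 or more was reached by 2.92% of all genes. The size depends on the scale: the median was 1.39 on plain library totals and 1.15 on log2(TPM + 1), scales on which the median of all genes also moved, to -0.36 and -0.51. Measured from the median of all genes, the structural median was 1.75, 1.75 and 1.66 on the 3 scales. Higher calls made up 52.8% of all calls with TMM scaling, 21.1% on library totals and 11.9% on log2(TPM + 1). In bulk tissue, fewer cells of a type and less RNA per cell cannot be told apart.

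Summed over the 37 complex I genes, expression was 5977, 5954 and 5258 CPM in the ADISSP libraries, against 1595, 1412 and 1858 CPM in the Control libraries, where CPM are counts per 1e+06 counts of a library after TMM scaling. The ADISSP libraries lay close together and far above the Control libraries, among which Control 3 was highest and Control 2 lowest. The mean was 5729.7 ± 409 CPM in ADISSP and 1622 ± 225 CPM in Control (SD, n = 3 each), a ratio of 3.53. As a share of all counts, with 95% Wilson intervals for counting error, these genes took 0.527% (0.523 to 0.531%), 0.521% (0.517 to 0.526%) and 0.473% (0.470 to 0.477%) in ADISSP 1 to 3, against 0.185% (0.183 to 0.187%), 0.167% (0.165 to 0.169%) and 0.195% (0.193 to 0.197%) in Control 1 to 3. Deposited TPM correct for gene length and, unlike the CPM, carry no TMM scaling. The sum of these genes was 10263, 9779 and 9449.8 TPM in the ADISSP libraries, against 4282, 3956 and 4626 TPM in the Control libraries, a ratio of 2.29. The order of the libraries within each group recurred in most genes. Control 3 was the highest Control library for 32 of the 37, Control 2 the lowest for 33, and ADISSP 3 the lowest ADISSP library for 30.

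**Figure D1:**
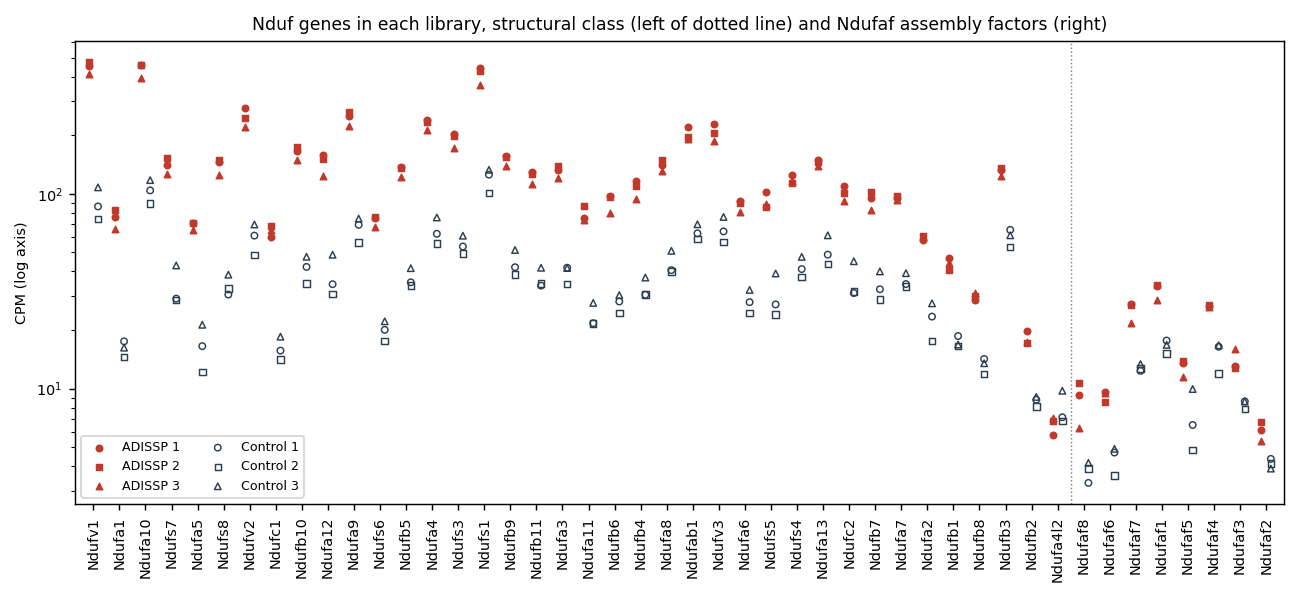
Expression of Nduf genes in each library, in CPM on a log axis, with filled red points for the 3 ADISSP libraries, open dark points for the 3 Control libraries and the Ndufaf class right of the dotted line. For every complex I gene shown the red points lie above the dark ones, and for Ndufa4l2 they overlap.

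The upstream sequence of the members at the ends of each class is shown to set the largest and smallest changes beside the letters in front of the gene. The 250 bases before the start site were taken from RefSeq on GRCm38.p6, another build than that of the counts, and are written 5′ to 3′ on the gene's strand. Capitals mark an exact match, on either strand, to a 7-letter core of a regulator of mitochondrial genes: AAGGTCA for estrogen-related receptors, GCATGCG for NRF1, CCGGAAG for ETS factors such as GABP, and ATGGCGG for YY1. Ndufv1 (chr19:4012756-4013005, minus strand) had the largest rise of the structural class, and Ndufb2 (chr6:39592315-39592564, plus strand) the smallest rise in complex I. Ndufaf8 (chr11:120098684-120098933, plus strand) and Ndufaf2 (chr13:108158626-108158875, minus strand) had the largest and smallest change of the Ndufaf class.
Ndufv1: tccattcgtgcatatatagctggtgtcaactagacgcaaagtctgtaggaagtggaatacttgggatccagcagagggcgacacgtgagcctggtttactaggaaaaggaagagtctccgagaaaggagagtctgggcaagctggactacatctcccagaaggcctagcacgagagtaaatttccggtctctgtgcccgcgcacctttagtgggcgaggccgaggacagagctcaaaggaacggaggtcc
Ndufb2: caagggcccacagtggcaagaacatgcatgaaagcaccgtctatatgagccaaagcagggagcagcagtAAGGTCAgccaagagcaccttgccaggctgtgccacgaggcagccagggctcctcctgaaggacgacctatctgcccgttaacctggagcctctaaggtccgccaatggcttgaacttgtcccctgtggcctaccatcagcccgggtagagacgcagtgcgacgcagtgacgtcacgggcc
Ndufaf8: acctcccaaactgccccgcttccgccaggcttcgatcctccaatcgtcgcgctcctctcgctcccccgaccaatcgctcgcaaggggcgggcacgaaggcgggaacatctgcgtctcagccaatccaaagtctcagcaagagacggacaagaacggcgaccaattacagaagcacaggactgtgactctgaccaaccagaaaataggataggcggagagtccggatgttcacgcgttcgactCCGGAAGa
Ndufaf2: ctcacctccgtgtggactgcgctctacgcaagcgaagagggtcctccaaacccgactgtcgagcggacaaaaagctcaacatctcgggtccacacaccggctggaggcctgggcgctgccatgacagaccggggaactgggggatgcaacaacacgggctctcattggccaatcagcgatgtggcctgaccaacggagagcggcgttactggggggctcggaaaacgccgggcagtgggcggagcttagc
The windows of Ndufv1 and Ndufaf2 hold none of these letters, Ndufb2 holds the ERR core at positions -181 to -175 from the start site, and Ndufaf8 holds the ETS core at -8 to -2 and, past the start site, the YY1 core at 14 to 20. Of the 48 members, 41 were matched by symbol, with 43 windows of 300 bases that include 50 bases past the start site. The ERR core was in 8.33% of 36 structural windows, 0 of 7 Ndufaf windows and 4.72% of all 32851 promoter windows. The NRF1 core, which reads almost alike on both strands, was in 8.33% of structural, 28.6% of Ndufaf and 3.58% of all windows. The ETS core was in 11.1%, 28.6% and 8.86%, in the same order, and the YY1 core in 9 of 36 structural windows, 28.6% and 4.05%. Of those 9 windows 2 overlap and hold the same YY1 match, in front of Ndufa7. For Ndufb5, Ndufs7, Ndufa9, Ndufs6 and Ndufs4 the YY1 match lies past the start site, between positions 20 and 45, and not in front of the gene. With 7 Ndufaf windows, 28.6% is 2 windows. A match describes the letters and is no measurement of binding, and these shares were not tested.

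The core subunits of the N module showed the largest single change. Ndufv1 (chr19:4057384-4062806, minus strand, GRCm39 as in the count table) encodes the subunit that binds NADH and the flavin. It had 451, 476 and 413 CPM in the ADISSP libraries, against 86.2, 74.2 and 108 CPM in the Control libraries. Changes given from here on are log2 fold changes of this test. All ADISSP libraries were more than 3-fold above the highest Control library, and the log2 fold change was 2.32 (SE 0.15, adjusted p 1.6e-05). Ndufv2, an iron-sulfur partner of Ndufv1, had 275, 244 and 219 CPM in the ADISSP libraries, against 61.0, 48.6 and 69.6 CPM in the Control libraries. Its groups were apart as well, by less than those of Ndufv1, at 2.04 (SE 0.15, adjusted p 2.6e-05). Ndufs1, the largest subunit and carrier of several iron-sulfur clusters, had 445, 426 and 363 CPM in the ADISSP libraries, against 125, 101 and 133 CPM in the Control libraries. Its ADISSP values were also all above its Control values, with a change of 1.78 (SE 0.14, adjusted p 3.3e-05), the smallest of the 7 core subunits.

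The 4 core genes of the Q module had a median of 2.06, beside 2.04 for the 3 of the N module. Ndufs7, which carries the last iron-sulfur cluster before ubiquinone, had 141, 153 and 126 CPM in the ADISSP libraries, against 29.0, 28.5 and 42.9 CPM in the Control libraries. Control 3 stood above the other 2 Control libraries for Ndufs7, yet far below every ADISSP library, and the change was 2.07 (SE 0.17, adjusted p 7.2e-05). Ndufs8, another iron-sulfur subunit, had 146, 149 and 124 CPM in the ADISSP libraries, against 30.4, 32.6 and 38.5 CPM in the Control libraries, a change of 2.05 (SE 0.12, adjusted p 1.2e-05). Ndufs3, which sits at the base of the Q module and carries no cluster, had 203, 197 and 172 CPM in the ADISSP libraries, against 53.7, 49.5 and 61.0 CPM in the Control libraries, a change of 1.80 (SE 0.12, adjusted p 1.6e-05). In Ndufs7, Ndufs8 and Ndufs3 ADISSP 3 was the lowest ADISSP library, and no library of either group overlapped the other group.

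Accessory subunits rose too, over a wider range. The 30 accessory genes had a median log2 fold change of 1.69, between 1.06 and 2.21, and the 7 core genes one of 2.05, between 1.78 and 2.32. Of the 30, 9 reached the lowest core value and 3 exceeded the core median. The summed core over the summed accessory expression was 0.572, 0.583 and 0.560 in the ADISSP libraries, against 0.460, 0.451 and 0.467 in the Control libraries, so each ADISSP library had a larger core share than each Control library. This ratio was not tested. By module, the medians were 1.66 for 5 accessory genes of the N module, 1.76 for 4 of the Q module, 1.73 for 9 of the proximal membrane arm and 1.71 for 11 of the distal arm. Ndufab1, the mitochondrial acyl carrier protein found in both arms, changed by 1.66 (adjusted p 1.6e-05).

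In the proximal membrane arm, Ndufa1, a small membrane subunit encoded on the X chromosome at chrX:36451241-36454816, had 75.6, 82.4 and 65.9 CPM in the ADISSP libraries, against 17.5, 14.5 and 16.2 CPM in the Control libraries. No other accessory gene had a larger change, 2.21 (SE 0.12, adjusted p 9.5e-06). Ndufa10, a large accessory subunit of that arm with a fold like that of nucleoside kinases, had 459, 458 and 395 CPM in the ADISSP libraries, against 104, 89.1 and 118 CPM in the Control libraries, a change of 2.08 (SE 0.13, adjusted p 1.6e-05). In both genes all ADISSP libraries were above all Control libraries by a wide margin. The other proximal genes lay between 1.49 for Ndufc2 and 2.01 for Ndufc1, with Ndufa13 at 1.50, Ndufs5 at 1.62, Ndufa8 at 1.68, Ndufa11 at 1.73 and Ndufa3 at 1.74, each past the threshold.

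The smallest rises within complex I were in the distal membrane arm, the part that holds the subunits farthest from the ubiquinone site. Ndufb2 had 19.7, 17.1 and 17.3 CPM in the ADISSP libraries, against 8.77, 8.08 and 9.07 CPM in the Control libraries, a change of 1.06 (SE 0.14, adjusted p 0.00060). Ndufb3 had 133, 135 and 123 CPM in the ADISSP libraries, against 65.3, 53.5 and 61.2 CPM in the Control libraries, a change of 1.12 (SE 0.10, adjusted p 8.4e-05). Ndufb8 had 28.6, 29.8 and 30.8 CPM in the ADISSP libraries, against 14.2, 11.9 and 13.5 CPM in the Control libraries, a change of 1.17 (SE 0.12, adjusted p 0.00016). For these 3 small membrane subunits the groups were apart in every library, but the ADISSP values were little more than 2-fold above the Control values. The distal arm as a whole was mixed: Ndufb1 changed by 1.34 and Ndufb7 by 1.47, whereas Ndufb10 changed by 1.97, Ndufb5 by 1.84, Ndufb9 by 1.76, Ndufb11 by 1.74, Ndufb6 by 1.73 and Ndufb4 by 1.71. Summed distal expression over that of the other modules was 0.232, 0.232 and 0.233 in the ADISSP libraries, against 0.282, 0.287 and 0.266 in the Control libraries, lower in every ADISSP library than in any Control library and not tested.

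The accessory genes of the peripheral arm rose as well. In the N module, Ndufa12 changed by 1.93, Ndufs6 by 1.87, Ndufv3 by 1.66, Ndufs4, needed for a stable N module, by 1.50 and Ndufa2 by 1.39. In the Q module, Ndufa5 changed by 2.05, Ndufa9, which binds NADPH, by 1.88, Ndufa6 by 1.64 and Ndufa7 by 1.42. Each of these 9 was called higher, against 18.5% of all genes. In each the groups did not overlap, which held for 26.0% of all genes in that direction.

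**Figure D2:**
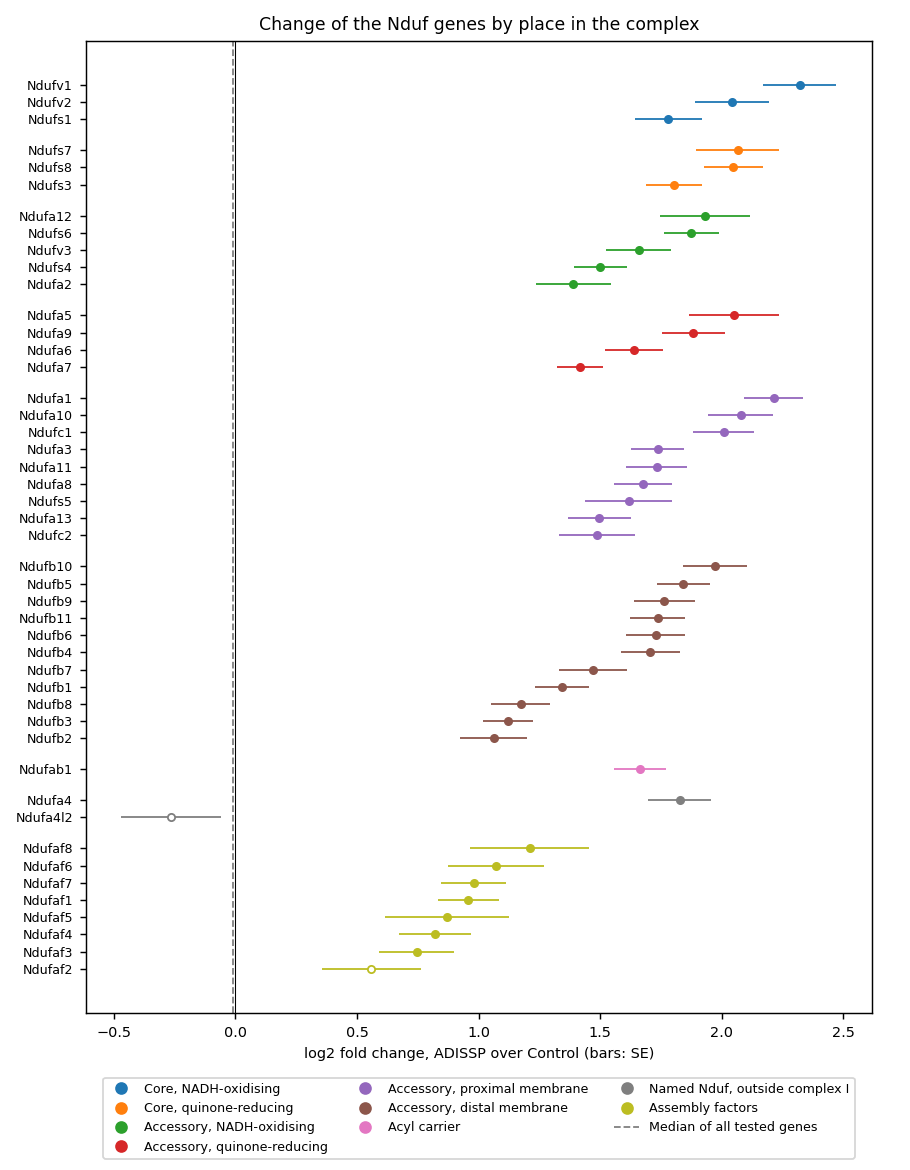
Log2 fold change of Nduf genes with their standard errors, grouped and coloured by module, ADISSP over Control; open points did not pass the threshold and the dashed line is the median of all tested genes. Core genes sit between 1.78 and 2.32, distal arm genes between 1.06 and 1.97, and Ndufaf genes between 0.56 and 1.21.

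The 2 genes of the class that are not complex I subunits moved apart. Ndufa4, named as a complex I subunit and now assigned to complex IV, had 239.5, 234 and 213 CPM in the ADISSP libraries, against 62.4, 55.7 and 75.6 CPM in the Control libraries. All ADISSP libraries were above all Control libraries, with a change of 1.83 (SE 0.13, adjusted p 2.2e-05), inside the range of the complex I genes. Ndufa4l2, a paralogue of Ndufa4 that is induced in hypoxia, had 5.77, 6.84 and 7.10 CPM in the ADISSP libraries, against 7.13, 6.82 and 9.75 CPM in the Control libraries. Its groups overlapped and the log2 fold change was -0.26 (SE 0.21, adjusted p 0.35). On plain library totals it was -0.60 (adjusted p 0.032) and on log2(TPM + 1) it was -0.80 (limma adjusted p 0.0027), so that this gene counted as lower on those scales, on which 38.0% and 55.0% of all genes were called lower.

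The assembly factors were higher too, by smaller amounts. Of the 8 Ndufaf genes 7 were called higher, 0 lower, and Ndufaf2 did not pass, against 18.5% of all genes called higher. The median log2 fold change was 0.91, or 1.88-fold, which 9.98% of all genes reached. At least 2-fold higher were 2 genes, against 7.64% of all genes. In all 8 the lowest ADISSP library was above the highest Control library, which held for 26.0% of all genes in that direction. Summed over the 8 genes, expression was 139, 140.3 and 125 CPM in the ADISSP libraries, against 73.9, 64.0 and 78.4 CPM in the Control libraries. The sum relative to that of the 37 complex I genes was 0.0233, 0.0236 and 0.0238 in the ADISSP libraries, against 0.0463, 0.0454 and 0.0422 in the Control libraries, lower in each ADISSP library than in any Control library, and was not tested. By another scale 4 of 8 were higher on log2(TPM + 1), against 7.41% of all genes, with a median of 0.35, and the median was 0.57 on library totals.

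Ndufaf1 belongs to the mitochondrial complex I intermediate assembly (MCIA) complex, which builds part of the membrane arm. It had 33.7, 34.1 and 28.5 CPM in the ADISSP libraries, against 17.7, 15.1 and 16.8 CPM in the Control libraries, a change of 0.96 (SE 0.12, adjusted p 0.00064). Ndufaf6, needed for the part that contains mt-Nd1, had 9.65, 8.49 and 9.51 CPM in the ADISSP libraries, against 4.70, 3.57 and 4.91 CPM in the Control libraries, a change of 1.07 (SE 0.20, adjusted p 0.0037). In both genes every ADISSP library exceeded every Control library. Ndufaf3 and Ndufaf4 act together on the Q module. Ndufaf3 had 13.1, 12.8 and 16.04 CPM in the ADISSP libraries, against 8.60, 7.86 and 8.59 CPM in the Control libraries, a change of 0.75 (SE 0.15, adjusted p 0.0063). Ndufaf4 had 26.5, 26.8 and 26.3 CPM in the ADISSP libraries, against 16.4, 11.9 and 16.7 CPM in the Control libraries, a change of 0.82 (SE 0.15, adjusted p 0.0035). For Ndufaf4 the ADISSP libraries were nearly equal, while Control 2 lay below the other Control libraries.

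Ndufaf5 and Ndufaf8 are partners: Ndufaf5 hydroxylates an arginine of Ndufs7, and Ndufaf8 stabilises Ndufaf5. Ndufaf5 had 13.5, 13.9 and 11.4 CPM in the ADISSP libraries, against 6.51, 4.84 and 9.96 CPM in the Control libraries. Control 3 came close to the lowest ADISSP library, and the change was 0.87 (SE 0.25, adjusted p 0.027). Leaving out ADISSP 1, 2 or 3 or Control 1 or 2 each ended that call, at adjusted p-values of 0.052 to 0.093. Ndufaf8 had 9.33, 10.7 and 6.32 CPM in the ADISSP libraries, against 3.28, 3.90 and 4.16 CPM in the Control libraries, with ADISSP 3 the lowest of its group, a change of 1.21 (SE 0.24, adjusted p 0.0056). Ndufaf7, a protein arginine methyltransferase of complex I assembly, had 27.3, 26.8 and 21.7 CPM in the ADISSP libraries, against 12.3, 12.7 and 13.4 CPM in the Control libraries, a change of 0.98 (SE 0.13, adjusted p 0.00079) with clearly separate groups. Ndufaf2, a paralogue of the N module subunit Ndufa12, had 6.17, 6.73 and 5.39 CPM in the ADISSP libraries, against 4.36, 4.12 and 3.89 CPM in the Control libraries. Its groups did not overlap, but the change of 0.56 (SE 0.20, adjusted p 0.060) did not pass the threshold, while Ndufa12 itself changed by 1.93.

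Assembly factors without a Nduf name were mostly higher as well. Of 10 tested, 9 were called higher and 0 lower, against 18.5% and 16.5% of all genes. The median was 1.03, and the list was chosen with results of these data known. Ecsit and Foxred1 changed most, by 1.57 (adjusted p 5.3e-05) and 1.46 (adjusted p 1.6e-05), followed by Tmem70 at 1.23 (adjusted p 4.1e-05) and Tmem186 at 1.00 (adjusted p 0.00020). The MCIA genes were uneven. Tmem126b, a membrane member of that complex, had 29.8, 29.2 and 28.2 CPM in the ADISSP libraries, against 28.8, 24.1 and 29.5 CPM in the Control libraries. Its groups overlapped, and its log2 fold change was 0.08 (adjusted p 0.61) here and -0.47 on log2(TPM + 1) (limma adjusted p 0.0069). Acad9, an acyl-CoA dehydrogenase relative that works in MCIA, had 79.8, 80.5 and 70.5 CPM in the ADISSP libraries, against 58.9, 53.3 and 68.9 CPM in the Control libraries. Its change of 0.35 (adjusted p 0.041) passed narrowly, and in 10 of 13 alternatives it kept its sign but did not pass. In a further alternative, log2(TPM + 1), the change was -0.22 and did not pass either (limma adjusted p 0.090). Without Control 2, for example, it was 0.27 (adjusted p 0.14), and the call was likewise lost without any of the other libraries except Control 3.

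Levels between genes were compared in deposited TPM, which depend on the gene length used. Among the 37 complex I genes the median level was 259.6 TPM in ADISSP and 105.9 TPM in Control. Ndufb3 ranked highest in Control, with a mean 51.2-fold that of the lowest gene, at 483 ± 11.4 TPM in ADISSP and 332 ± 29.6 TPM in Control (SD, n = 3 each). Ndufb2 was lowest, at 9.07 ± 0.877 TPM in ADISSP and 6.48 ± 0.161 TPM in Control, with a gene length, read from the ratio of counts to TPM, 3.59 times that of the median member. Ndufaf genes had medians of 20.79 TPM in ADISSP and 16.37 TPM in Control. Ndufaf1 led them at 60.4 ± 3.96 TPM in ADISSP and 46.5 ± 3.34 TPM in Control, and Ndufaf2 was lowest at 5.77 ± 0.390 TPM in ADISSP and 5.87 ± 0.602 TPM in Control.

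**Figure D3:**
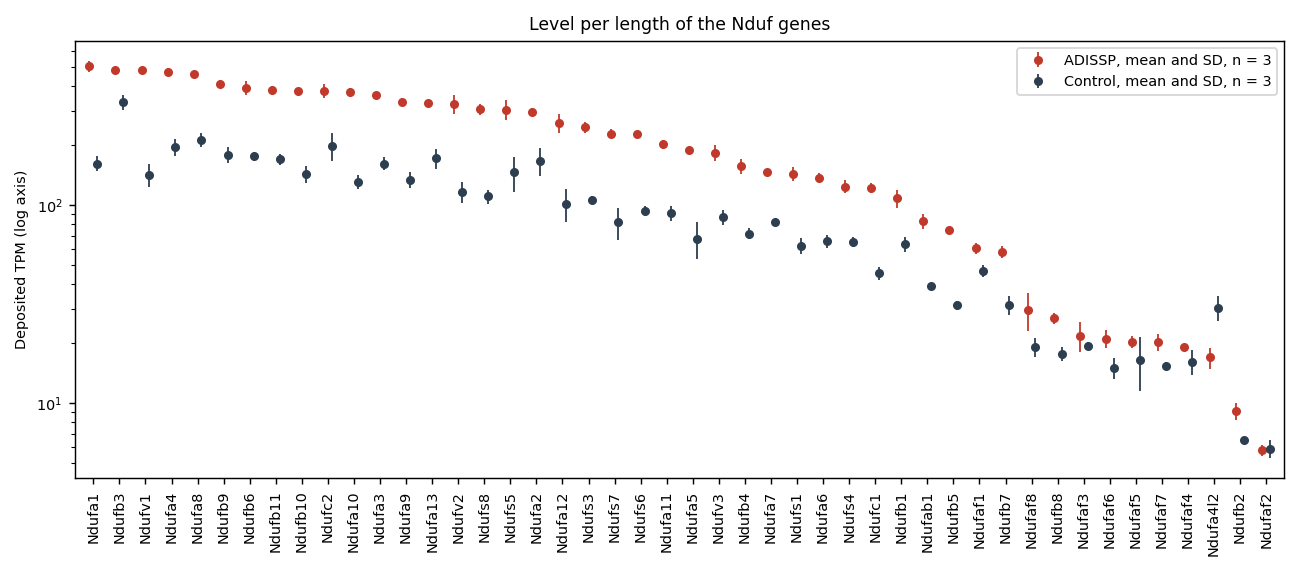
Mean level of Nduf genes in deposited TPM on a log axis, as mean and SD over 3 libraries, with ADISSP in red left of Control in dark and genes ordered by their ADISSP level. The Ndufaf genes, with medians of 20.79 TPM in ADISSP and 16.37 TPM in Control, lie below most complex I genes, whose medians are 259.6 TPM and 105.9 TPM.

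To see which members moved out of proportion, the test was repeated with each library scaled to the summed counts of the 37 complex I genes. Abundant genes weigh most in this sum, which includes the 37 genes themselves. The median of the 37 on this scale was -0.09. On this scale 91.8% of all 17320 genes were called lower and 1.21% higher. Of the 47 tested members 4 were higher and 19 lower. The higher genes included Ndufv1 at 0.51 (SE 0.12, adjusted p 0.0018), Ndufa1 at 0.38 (adjusted p 0.034) and Ndufa10 at 0.26 (adjusted p 0.048). Of the 4 higher genes only Ndufv1 kept its call under all 10 alternatives. The count of 4 became 1 without ADISSP 1, ADISSP 2 or ADISSP 3, and 2 without Control 1 or Control 2.

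The 19 lower members were all 8 Ndufaf genes, Ndufa4l2 and 10 complex I genes, in the direction in which 91.8% of all genes were called. Without ADISSP 1 or Control 1 there were 12. Ndufb2 at -0.77 (SE 0.19, adjusted p 0.0027) and Ndufb3 at -0.71 (SE 0.13, adjusted p 0.00046) kept their calls in all 10 alternatives and Ndufb8, at -0.65 (adjusted p 0.0045), in 9. The other 7 complex I genes were Ndufb1, Ndufa2, Ndufa7, Ndufb7, Ndufc2, Ndufa13 and Ndufs4, which lay between -0.32 and -0.49, and each lost its call in 3 to 8 of the 10 alternatives. Ndufa4l2 was at -2.07 (adjusted p 1.4e-05). Among the Ndufaf genes Ndufaf2 was at -1.28 (SE 0.26, adjusted p 0.00086), Ndufaf3 at -1.07 (adjusted p 0.00090), Ndufaf4 at -0.99 (adjusted p 0.00023) and Ndufaf8, nearest to proportion, at -0.63 (adjusted p 0.044). Ndufaf1, Ndufaf2, Ndufaf3, Ndufaf4, Ndufaf5 and Ndufaf7 kept their calls in all 10 alternatives, whereas Ndufaf8 lost its call in 8, with adjusted p-values up to 0.15, and Ndufaf6 in 2.

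**Figure D4:**
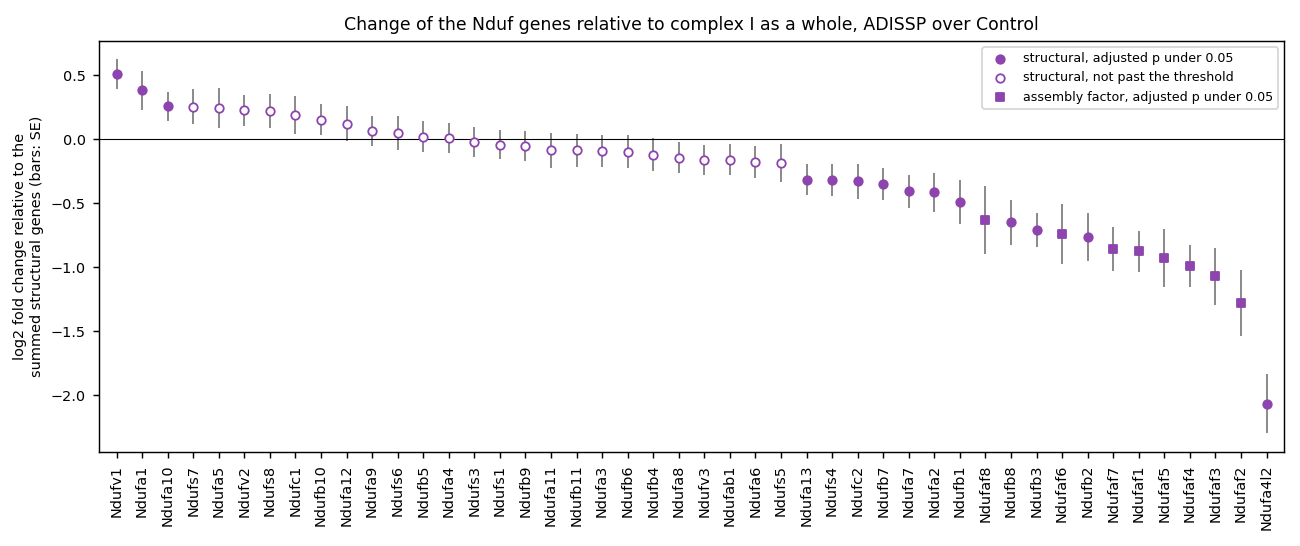
Log2 fold change of Nduf genes relative to the summed complex I genes, with standard errors, ADISSP over Control. Here 0 means in proportion to the summed counts, in which abundant genes weigh most. Circles are structural-class genes, squares are Ndufaf genes, and open circles did not pass the threshold. Ndufv1 lies above 0 at 0.51, Ndufb2 below it at -0.77, and Ndufaf genes lie between -1.28 and -0.63.

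The other respiratory complexes were higher in ADISSP fat as well. The 43 tested nuclear genes listed for complexes II to V had 41 called higher and 0 lower, against 18.5% and 16.5% of all genes. Their median was 1.91, with medians of 1.99 in complex II, 2.27 in complex III, 2.06 in complex IV and 1.49 in complex V. The 2 that did not pass were Atp5mc1 at -0.26 (adjusted p 0.31) and Atp5if1 at -0.08 (adjusted p 0.65), both listed under complex V. Atp5if1 encodes an inhibitor of complex V and not a subunit of it. Both genes were lower on library totals and on log2(TPM + 1), where Atp5mc1 was -0.60 and -0.77 and Atp5if1 was -0.44 and -0.65. Summed expression of complexes II to V over that of complex I was 2.97, 2.99 and 2.97 in the ADISSP libraries, against 2.77, 2.75 and 2.79 in the Control libraries, higher in every ADISSP library and not tested. The sum for complexes II to V includes Cox7a1 and Cox8b, which are also among the brown and beige fat cell markers below. Cox7a1 had a mean of 238 CPM in ADISSP and 9.58 CPM in Control, a change of 4.64 (adjusted p 0.0011). Cox8b had 357 and 18.1 CPM, a change of 4.31 (adjusted p 0.00075). The ratio without these genes was not calculated. Scaled to complexes II to V, where 92.6% of all genes were lower and 1.08% higher, 1 member was higher and 19 were lower. The higher one was Ndufv1 at 0.40 (SE 0.12, adjusted p 0.0080), which did not pass with Control 3 as the only control (adjusted p 0.086). Of the 37 complex I genes 26 did not pass in either direction, and Ndufa2, Ndufa7, Ndufb2, Ndufb3, Ndufb7 and Ndufb8 were lower under all 10 alternatives.

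The 7 complex I subunits encoded in mitochondrial DNA were higher too. All 7 mt-Nd genes were called higher, against 18.5% of all genes. Their median log2 fold change was 1.75, between 1.16 for mt-Nd4l and 1.98 for mt-Nd6. Few counts fell on mt-Nd4l, with 82, 77 and 67 in the ADISSP libraries, against 56, 43 and 48 in the Control libraries. The same held for mt-Nd3, with 83, 63 and 98 against 53, 25 and 35. By comparison mt-Nd1 had 59607 to 169944 counts. Nearly all of the summed mt-Nd expression came from mt-Nd1, mt-Nd2, mt-Nd4 and mt-Nd5. Counts on mt-Nd4l, mt-Nd3 and mt-Nd6 may be shared with genes that overlap or lie next to them, and the strand setting is not given. The summed mt-Nd over the summed nuclear complex I expression was 7.85, 9.28 and 7.70 in the ADISSP libraries, against 9.55, 8.004 and 7.63 in the Control libraries, and here the groups overlapped. With Control 3 as the only control mt-Nd4l did not pass (0.98, adjusted p 0.099).

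**Figure D5:**
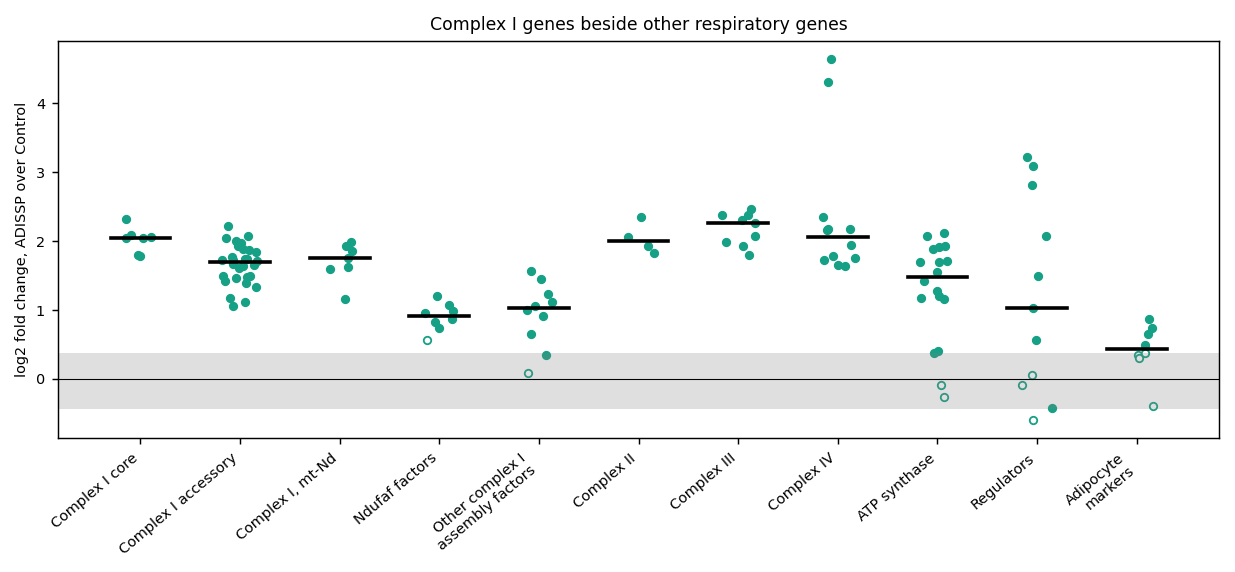
Log2 fold changes of the tested genes of each list, ADISSP over Control, with 1 point per gene (open where it did not pass the threshold), a line at the median of each list and a grey band for the middle 50% of all genes tested, -0.43 to 0.38. The medians are 2.05 for core, 1.69 for accessory, 1.75 for mt-Nd and 0.91 for Ndufaf genes, and those of complexes II to IV lie between 1.99 and 2.27.

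Regulators known to act on respiratory chain genes changed unevenly. Of 11 listed genes 7 were called higher, 1 lower and 3 did not pass, where 18.5% of all genes were called higher and 16.5% lower. Ppargc1a, a coactivator of mitochondrial genes, had 87.3, 88.3 and 78.7 CPM in the ADISSP libraries, against 9.40, 9.18 and 11.3 CPM in the Control libraries, a change of 3.09 (SE 0.12, adjusted p 1.6e-06). Its relative Ppargc1b had 159, 156 and 140.4 CPM in the ADISSP libraries, against 21.5, 19.5 and 23.6 CPM in the Control libraries, a change of 2.82 (SE 0.11, adjusted p 1.6e-06). For both coactivators every ADISSP library was far above every Control library. Esrra, an estrogen-related receptor, changed by 1.50 (adjusted p 5.5e-05) and Gabpa, the ETS subunit of GABP, by 1.03 (adjusted p 6.5e-05). Nrf1 was the exception among called genes, with 26.3, 23.7 and 21.4 CPM in the ADISSP libraries, against 33.3, 35.9 and 26.4 CPM in the Control libraries. Every ADISSP value lay below the lowest Control value, ADISSP 1 only just. The change was -0.42 (adjusted p 0.049), and leaving out ADISSP 1, 2 or 3 or Control 1 or 2 each ended the call, at adjusted p-values of 0.063 to 0.17. Pprc1, Yy1 and Gabpb1 did not pass, at 0.06 (adjusted p 0.65), -0.08 (adjusted p 0.55) and -0.60 (adjusted p 0.051).

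Markers of cell types moved with the groups. Beside the counts of called markers given here, 18.5% of all genes were called higher and 16.5% lower. Of 12 brown and beige fat cell markers 9 were called higher and 3 lower, and their summed level was 4279 to 5051 CPM in ADISSP and 156 to 249.4 CPM in Control. Ucp1, the brown fat uncoupling protein, had 3126, 3302 and 2774 CPM in the ADISSP libraries, against 42.1, 61.4 and 94.2 CPM in the Control libraries, and made up most of the ADISSP sum. Zic1, a marker of classical brown fat, was among the higher ones, with 6.33, 7.39 and 5.68 CPM in the ADISSP libraries, against 0.0566, 0.165 and 0.546 CPM in the Control libraries. The 3 lower ones are all known from beige rather than classical brown fat cells. Tbx1 had 0.158, 0.331 and 0.284 CPM in the ADISSP libraries, against 1.87, 2.64 and 2.05 CPM in the Control libraries. Tmem26 had 0.395, 0.331 and 0.426 CPM in the ADISSP libraries, against 3.06, 3.74 and 0.886 CPM in the Control libraries. Tnfrsf9 had 0.237, 0.772 and 0.710 CPM in the ADISSP libraries, against 1.87, 2.42 and 0.955 CPM in the Control libraries. All 3 were low, with 2 to 10 counts in the ADISSP libraries, and Control 3 lay below the other Control libraries for Tmem26 and Tnfrsf9. The summed B cell and T cell markers given below were also lowest among the Control libraries in Control 3. Whether Tmem26 and Tnfrsf9 follow immune cells here was not tested. With Control 3 as the only control Tmem26 and Tnfrsf9 did not pass (adjusted p 0.43 and 0.63), and the call of Tnfrsf9 was also lost when any 1 other library was left out, at adjusted p-values of 0.071 to 0.15. Of 8 general fat cell markers 4 were higher and 0 lower, with sums of 17556 to 19741 CPM in ADISSP and 12504 to 16876 CPM in Control. In deposited TPM the order of the means was the opposite, with sums of 14927 to 18334 TPM in ADISSP and 18098 to 21856 TPM in Control. These 8 genes mark fat cells in general and do not tell an inguinal white depot from another. All 8 B cell markers, all 7 T cell markers and all 8 macrophage markers were lower. Their sums were 5.30 to 8.93 CPM in ADISSP and 97.0 to 513 CPM in Control for B cells, 16.3 to 19.5 CPM in ADISSP and 46.6 to 197 CPM in Control for T cells and 222 to 299 CPM in ADISSP and 543 to 628 CPM in Control for macrophages. Of 6 fibroblast and progenitor markers 4 were lower, with sums of 1466 to 1896 CPM in ADISSP and 3076 to 3531 CPM in Control, and of 4 endothelial markers 2 were lower, with sums of 527 to 634 CPM in ADISSP and 741 to 801 CPM in Control. No marker of these lists was at 0 in any library. The part of cell composition in the Nduf results was not tested.

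Markers of skeletal muscle, a tissue rich in mitochondria, differed between libraries within a group. Of 12 muscle markers 2 were called higher and 0 lower, against 18.5% and 16.5% of all genes. The 12 markers summed to 3337, 3875 and 3876 CPM in the ADISSP libraries, against 35.7, 44.7 and 9509 CPM in the Control libraries. Control 3 was thus above, and Control 1 and Control 2 far below, every ADISSP library. Control 3 also had fewer B cell counts than the other 2 Control libraries. With Control 3 as the only control, and the spread taken from the ADISSP libraries, 38 structural-class genes were higher and 0 lower, with a median of 1.55, while 17.4% of 18326 genes tested were called, 10.3% higher and 7.12% lower. In that comparison 4 of 8 Ndufaf genes were higher. Ndufaf5, at 0.37 (adjusted p 0.33), Ndufaf3, at 0.70 (adjusted p 0.066), Ndufaf8, at 1.06 (adjusted p 0.051), and Ndufaf2, at 0.64 (adjusted p 0.22), did not pass.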

How the data were processed

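RNA-seq counts of 6 libraries were analysed, 3 per group, with 10357930 to 15658428 counts each. Per the labels' protocols, RNA was extracted with TRIzol, depleted of ribosomal RNA and sequenced on a NovaSeq X. Per the submitters' processing notes, the authors used STAR and featureCounts with mm39 (GRCm39); their versions, the annotation release and the strand setting were not given in the sources used here. Whole, unnormalised counts were deposited. The TPM values, also deposited by the authors, served for levels and 1 alternative. FPKM was not used.

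Counts were tested in R 4.3.3 with edgeR 4.0.16: filterByExpr by group, TMM factors (0.876 to 0.900 in ADISSP, 1.05 to 1.18 in Control), robust quasi-likelihood test of ADISSP minus Control without covariates, and Benjamini-Hochberg adjustment over 17320 genes. Genes with adjusted p under 0.05 are called. The standard error is the log2 fold change divided by the square root of F. In relative tests the summed counts of a gene set replaced the library size. Alternatives were RLE factors, library totals, no filter, DESeq2 1.42.0, limma 3.58.1 on log2(TPM + 1), a replicate block, leaving out each library, Control 3 alone and, for relative tests, median-ratio scaling. The scripts were tested on simulated counts. No 2 libraries agreed within sampling noise. P-values measure the spread between these libraries.

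The members and gene lists were chosen with earlier results of these data known. Values by library are given for core subunits, the 4 largest and 4 smallest structural changes, members that did not pass, all Ndufaf genes, Ndufa4, and the extremes of the relative test. Genes of other lists are named mainly for the smallest p or a direction against the majority, and of the cell markers Ucp1 and Zic1 were chosen after their values were seen. Counts, sums and medians are over all members, and 1 member is not reported here by itself.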

Additional observations from a re-analysis of the deposited data

Results flagged for a closer look

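Ndufa12-ps, a processed pseudogene of Ndufa12 that lies outside the protein-coding genes described above, had a signal above that of the Control libraries. It had 29, 19 and 32 counts in the ADISSP libraries, against 11, 16 and 10 counts in the Control libraries, and the log2 fold change was 1.60 (SE 0.32, edgeR adjusted p 0.0058). Its groups did not overlap. Reads of a processed pseudogene can come from its parent gene, and how the authors' counting shared them is not given in the sources used here.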

How the results depend on the processing

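The 38 structural-class genes called higher were 38 under each of the 13 alternatives, and no complex I gene lost its call in any of them. The number of all genes changed, 6058, was 10804 on log2(TPM + 1) and 3190 with Control 3 as the only control, and it ran from 3823 without Control 1 to 8517 without Control 3 when 1 library was left out. The structural class had 1 lower gene, Ndufa4l2, with library totals and 1 with log2(TPM + 1). The structural median of 1.74 was 1.39 with library totals, 1.15 on log2(TPM + 1) and 1.55 with Control 3 as the only control. Of the Ndufaf genes 4 were higher on log2(TPM + 1) and 4 with Control 3 alone, and their median of 0.91 was 0.57 with library totals and 0.35 with log2(TPM + 1), where Ndufaf2 turned to -0.017.

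Relative to the complex I genes, the 4 higher members became 1 without a filter on low counts and 2 with Control 3 alone, and ran from 1 to 3 when 1 library was left out; the 19 lower members ran from 12 to 18 then. Among other genes, Acad9 turned to -0.22 on log2(TPM + 1), and Tmem126b to -0.26 on library totals, -0.47 on log2(TPM + 1) and -0.0246 with Control 3 alone, with a range from -0.00502 without Control 2 to 0.138 without Control 3. The cause of these changes was not tested.

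Replicate numbers are shared by the groups. The deviations of same-numbered libraries correlated at 0.0589, 0.0941 and 0.0579, and each library correlated best with its own number. Correlations this small cannot decide whether same-numbered libraries were paired. The main test used no pairing. With the replicate block 5541 genes were changed, 38 structural-class and 7 Ndufaf genes were higher, and relative to complex I 1 member was higher and 11 lower. With 3 libraries per group and as few as 57 counts of a member in a library, the standard errors of the Ndufaf changes reached 0.25.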

Other observations

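Of the 7 Nduf-named genes that are not protein-coding, 6 are processed pseudogenes and 1, Ndufb4b, is listed as a long noncoding RNA, and 3 had enough counts to be tested. Ndufs5-ps had 22, 12 and 22 counts in the ADISSP libraries, against 30, 38 and 13 counts in the Control libraries, a log2 fold change of -0.02 (edgeR adjusted p 0.98), with overlapping groups, whereas its parent Ndufs5 changed by 1.62. Ndufb4b had 11, 10 and 31 counts in the ADISSP libraries, against 12, 16 and 7 counts in the Control libraries, a log2 fold change of 1.03 (edgeR adjusted p 0.12), and ADISSP 3 stood apart from the other libraries. Ndufb4c, not tested, had 4, 9 and 7 counts in the ADISSP libraries, against 0, 2 and 1 counts in the Control libraries. Such genes share sequence with their parents, so their counts are uncertain.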
